A study of Sus scrofa with 6 samples.

Results

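The 4 enzymes that handle methyl groups and carnitine, BHMT, BHMT2, DMGDH and BBOX1, were described in whole pig embryos at embryonic day 21. They are 4 of 30139 genes listed, 2675 of them on chromosome 2, and all 4 lie on chromosome 2 and passed the expression filter. The genes are treated as selected on the difference between parthenogenetic (PA) and control (CN) embryos, together with their place in neighbouring steps of metabolism. Their levels and changes are therefore given as a description. Whether a gene passed the test is stated without its p-value and is not read as evidence. RNA of 3 PA and 3 CN embryos of the Landrace x Yorkshire x Duroc (LYD) cross was sequenced after selection of polyadenylated RNA. PA embryos, whose treatment is given as parthenogenesis, came from oocytes matured in vitro, activated by electric pulses and transferred to the oviducts of surrogate gilts, and they carry maternal genomes only. CN embryos are labelled untreated. According to the paper they came from natural mating of Landrace x Yorkshire gilts with boars of unstated breed. A difference in breeding and parthenogenesis therefore cannot be told apart. Few gilts gave the CN embryos, which may be littermates. Few surrogate gilts carried the PA embryos, and the number of oocyte donors is not stated. The p-values therefore measure only the spread between these embryos. With maternal genomes only, PA embryos carry no Y chromosome. The sex of CN embryos was not determined here, so sex may differ between the groups.

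Betaine, made from choline, carries methyl groups, and BHMT moves one of them to homocysteine, which gives methionine and dimethylglycine. BHMT2 makes methionine from homocysteine with S-methylmethionine as the donor, and DMGDH is the mitochondrial enzyme that oxidizes dimethylglycine to sarcosine and passes the carbon unit to folate. BBOX1 catalyses the last step of carnitine synthesis, the hydroxylation of gamma-butyrobetaine, and carnitine carries long-chain fatty acids into mitochondria. In adult mammals these enzymes are best known from liver and kidney.

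BHMT2, DMGDH and BHMT lie beside each other on chromosome 2 of the Sscrofa11.1 genome. DMGDH lies on the minus strand (chr2:87791827-87867189), BHMT2 on the plus strand (chr2:87866631-87882623), and BHMT on the plus strand (chr2:87911093-87935252), 28.5 kb beyond the end of BHMT2. BBOX1 lies 54.5 Mb away on the minus strand (chr2:33227965-33296013). The starts of DMGDH and BHMT2 overlap head to head. Their spans share 559 bases, and the 50 bases of the first exon of BHMT2 lie wholly within the first exon of DMGDH. The stated library kit is not described as strand-selective, so reads from these bases cannot be assigned to a strand. BHMT has no overlapping gene in the annotation.

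BHMT and BHMT2 are paralogues, and how far their sequences differ bears on how well their reads can be separated. Of 1090 coding positions aligned without a gap, 860 (78.9%) were identical. The percentage of identical bases was 76.7% in exon 2, 67.2% in exon 4, 83.1% in exon 5 and 70.5% in exon 6, but 94.8% in exon 7, a coding exon of 229 bases in both genes. The sequences of exon 7 are shown because it is the stretch where the paralogues are most alike among the exons of equal length. Capitals mark the 12 bases that differ. The exon lies at chr2:87930928-87931156 in BHMT and at chr2:87877603-87877831 in BHMT2, on the plus strand of Sscrofa11.1.
BHMT exon 7: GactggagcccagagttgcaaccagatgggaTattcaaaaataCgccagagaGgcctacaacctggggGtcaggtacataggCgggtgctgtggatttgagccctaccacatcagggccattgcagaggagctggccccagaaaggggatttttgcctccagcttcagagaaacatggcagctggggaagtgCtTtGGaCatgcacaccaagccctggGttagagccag
BHMT2 exon 7: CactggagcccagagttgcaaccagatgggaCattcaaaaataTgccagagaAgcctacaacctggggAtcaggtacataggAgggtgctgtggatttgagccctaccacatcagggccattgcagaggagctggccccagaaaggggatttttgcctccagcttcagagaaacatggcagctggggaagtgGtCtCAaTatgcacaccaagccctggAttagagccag
The longest run of identical coding bases was 109. Of 1972 distinct words of 31 bases in the BHMT2 transcript, 79 (4.01%) also occur in the BHMT transcript, so most of each transcript can be told from the other, whereas reads within the shared run cannot.

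Library totals were slightly higher in PA. CN libraries held 3100284 to 3276414 estimated counts and PA libraries 3360478 to 3573406, and 0.294% to 0.353% of counts lay on other chromosomes or scaffolds. Transcripts with no gene in the annotation took 6.91% to 7.77% of counts in CN and 8.44%, 10.2% and 16.9% in PA3, PA2 and PA1. TPM (a level per transcript length, scaled to the same total over all listed transcripts in each embryo) is therefore relative almost entirely to chromosome 2 and is lowered by such transcripts. Fold changes instead use TMM-normalized counts. No 2 embryos of a group had counts close enough to be one library. The 4 genes together held 0.0910% to 0.0962% of counts in CN and 0.0100% to 0.0323% in PA.

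BHMT2, DMGDH and BBOX1 had lower levels in every PA embryo than in any CN embryo, while BHMT did not separate the groups. A gene was called lower or higher in PA at an adjusted p-value below 0.05 (edgeR quasi-likelihood test, Benjamini-Hochberg adjustment over 1652 genes tested) and an absolute log2 fold change above 1. By this rule 3 of the 4 enzymes were called lower, where 46 of all genes tested (2.78%) were, and none was called higher, where 2 of all genes (0.121%) were. The same 3 had no overlap of TPM between groups, a pattern that 274 genes (16.6%) showed with PA lower. Since the enzymes are treated as selected on this contrast, nothing is read from these counts. Without the expression filter 2 of the 4 were called, and BHMT2 was the one lost, with its log2 fold change still -4.00 and its standard error 0.79 in place of 0.56. In whole embryos, fewer cells of a type and less RNA per cell cannot be told apart.

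**Figure D1:**
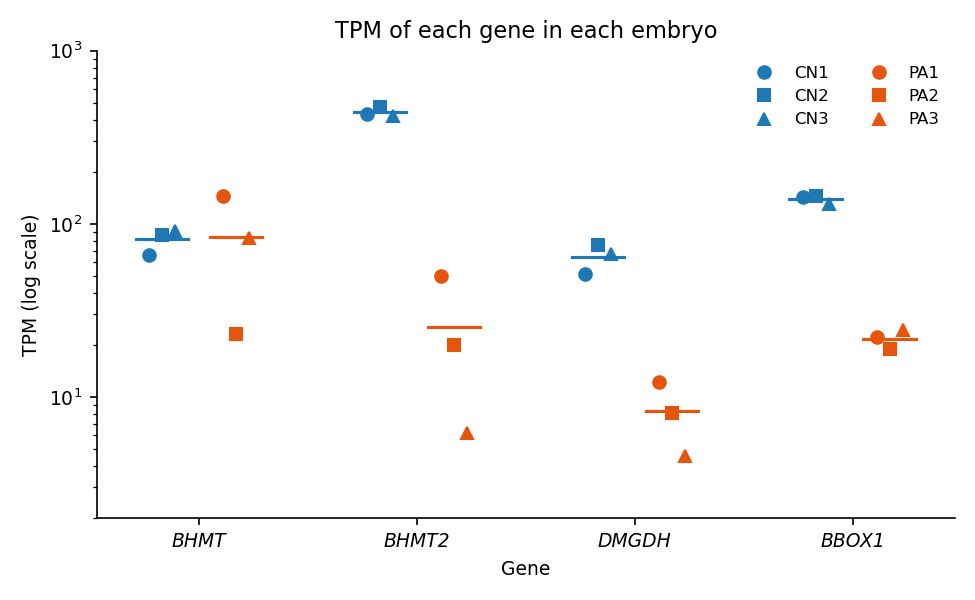
TPM of BHMT, BHMT2, DMGDH and BBOX1 (log scale) in 3 CN (blue) and 3 PA (orange) embryos, with horizontal lines at the group means. BHMT2, DMGDH and BBOX1 are lower in all PA embryos, whereas PA embryos range from 23.0 to 145.3 TPM for BHMT, around the CN embryos.

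BHMT2 had the highest level of the 4 in CN and the largest change. Its TPM was 432.1, 470.7 and 421.6 in CN1 to CN3, from 1655, 1547 and 1515 estimated counts. In PA1 to PA3 it was 49.7, 19.9 and 6.18, from 203, 76 and 23 counts. CN embryos were alike, with a coefficient of variation of 5.86%, and PA embryos were not, at 88.1%, the highest PA embryo having 8.05 times the level of the lowest. The mean TPM was 441.5 ± 25.9 (SD, n = 3) in CN and 25.3 ± 22.3 (SD, n = 3) in PA, a CN to PA ratio of 17.5. The lowest CN embryo lay 8.48-fold above the highest PA embryo. The log2 fold change, PA over CN, was -4.00 ± 0.56 (SE). Without PA1 it was -5.05 and the ratio of means 33.9, so the size of the change rests partly on that embryo. Among chromosome 2 genes tested, BHMT2 moved from the 77.5th percentile of mean TPM in CN to the 22.5th in PA.

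DMGDH was the least abundant per length. Its TPM was 51.2, 75.9 and 66.6 in CN1 to CN3 and 12.3, 8.04 and 4.54 in PA1 to PA3, from 454, 575 and 553 against 116, 71 and 39 counts. The groups were apart, with the lowest CN embryo 4.17-fold above the highest PA embryo. Mean TPM was 64.6 ± 12.5 (SD, n = 3) in CN and 8.28 ± 3.87 (SD, n = 3) in PA, a CN to PA ratio of 7.80, and the log2 fold change was -2.84 ± 0.34 (SE). The PA embryos were ordered as for BHMT2, PA1 highest and PA3 lowest, but over a narrower range, 2.70-fold against 8.05-fold. Only a few reads fell on the second annotated DMGDH transcript. The 16-exon form XM_021084480.1 held 97.0% ± 4.34 (SD, n = 3) of DMGDH TPM in CN and 100% in each PA embryo, and the 15-exon form XM_021084481.1 had 36.4, 6.2 and 0 counts in CN1 to CN3 and 0 in PA.

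BBOX1 had the most even change. Its TPM was 142.7, 145.0 and 131.0 in CN1 to CN3 and 22.1, 18.9 and 24.2 in PA1 to PA3, from 581, 507 and 506 against 100, 80 and 100 counts. Both groups were tight, with the highest embryo 1.11 times the lowest in CN and 1.28 times in PA. The mean was 139.6 ± 7.53 TPM (SD, n = 3) in CN and 21.7 ± 2.69 (SD, n = 3) in PA, a ratio of 6.43, and the lowest CN embryo lay 5.41-fold above the highest PA embryo. The log2 fold change of -2.62 had the smallest standard error of the 4, 0.15. PA3, the embryo with the least BHMT2 and DMGDH, had the most BBOX1 among PA embryos. Of genes that overlap the BBOX1 span, LOC102165168 shares 0 exon bases with it and had 2 to 7 counts, and LOC106509391 had 0 to 4 counts.

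By estimated counts, the fall of BBOX1 was uneven between its annotated first exons. The annotation holds 3 BBOX1 transcripts of 9 exons with the same coding sequence of 1164 bases, which starts in exon 3, so exons 1 and 2 are untranslated. XM_021083235.1 has a short first exon of 269 bases (chr2:33295742-33296010). XM_021083234.1 and XM_021083236.1 end the first exon 111 bases further on, at 33295631. The 24 bases across each exon end are shown because the choice between these splice donors is the main difference between the short form and the long ones. The first 12 bases are exon and the last 12 intron, on the minus strand of Sscrofa11.1, and capitals mark the first 2 bases of the intron.
Long first exon, chr2:33295619-33295642: gagataaggcagGTgagaactgct
Short first exon, chr2:33295730-33295753: acttttctccaaGTgagttttgca
Both introns open with GT, the usual start of an intron.

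The short form had 437.8, 370.3 and 278.0 estimated counts in CN1 to CN3 and 0 in each PA embryo. It held 76.5%, 74.2% and 56.4% of BBOX1 TPM in CN1 to CN3, 69.0% ± 11.0 (SD, n = 3), and its TPM in CN was 96.9 ± 19.9 (SD, n = 3). By counting error alone, a count of 0 allows up to 3 counts per embryo, which is 0.701, 0.750 and 0.769 TPM in PA1 to PA3. The CN mean was 131-fold above the mean of these floors. That ratio is not a lower limit, because the 0 comes from an estimated division of reads among transcripts. The long forms together had 143.2, 136.7 and 228.0 counts in CN and 100, 80 and 100 in PA. Their TPM was 33.6, 37.4 and 57.1 in CN and 22.1, 18.9 and 24.2 in PA, without overlap but closer, with means of 42.7 ± 12.6 and 21.7 ± 2.69 (SD, n = 3) and a CN to PA ratio of 1.97. These counts are estimates of how reads divide among transcripts that share almost all of their bases. Of 2058 distinct words of 31 bases in the short form, 29 are absent from the long forms, and 174 words of the long forms are absent from the short one. The division between the long forms also shifted. XM_021083234.1 had 0 estimated counts in CN1 and CN2 and 95.0 in PA3, where XM_021083236.1 had 143.2, 136.7 and 5.0 in the same embryos. The error of the division was not measured here, and the floors cover counting error only.

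**Figure D2:**
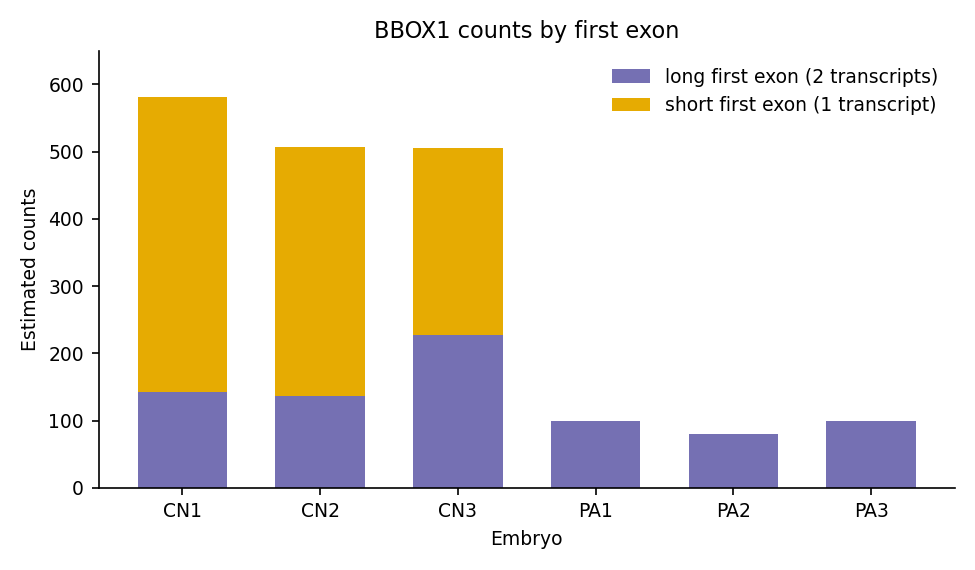
Estimated counts of BBOX1 in each embryo, stacked by first exon, with the 2 transcripts of the long first exon in purple and the transcript of the short first exon in yellow. The short form is present in all CN embryos at 278.0 to 437.8 counts and is at 0 in all PA embryos.

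BHMT varied among PA embryos more than between groups. Its TPM was 65.9, 86.5 and 91.2 in CN1 to CN3, from 313, 352 and 406 counts, and 145.3, 23.0 and 83.3 in PA1 to PA3, from 736, 109 and 384 counts. PA1 lay above and PA2 below all CN embryos, and PA3 lay among them. The spread from lowest to highest was 6.31-fold in PA and 1.38-fold in CN. Mean TPM was 81.2 ± 13.5 (SD, n = 3) in CN and 83.9 ± 61.2 (SD, n = 3) in PA. The log2 fold change of 0.16 ± 0.53 (SE) was -0.62 without PA1, 0.61 without PA2 and -0.17 with the replicate number as a block, so no direction can be given. BHMT was called in none of the alternatives run.

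The order of the 4 levels differed between groups. In each CN embryo TPM fell from BHMT2 through BBOX1 and BHMT to DMGDH, and the ranges of BHMT and DMGDH overlapped while the others were apart. In each PA embryo BHMT was highest and DMGDH lowest. BHMT2 ranked above BBOX1 in PA1 and PA2 and below it in PA3, and the range of BHMT2 in PA overlapped that of each other enzyme. The TPM ratio of BHMT2 to its paralogue BHMT was 6.56, 5.44 and 4.62 in CN1 to CN3 and 0.342, 0.864 and 0.0742 in PA1 to PA3. Every CN embryo thus had more BHMT2 than BHMT and every PA embryo less. In PA2 the paralogues were close, at 23.0 TPM for BHMT and 19.9 for BHMT2, from 109 and 76 counts. The sum of both, which depends less on how shared reads were divided, was 522.7 ± 30.8 TPM in CN and 109.1 ± 77.9 in PA (SD, n = 3).

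Sequence windows from 250 bases before to 50 bases after each annotated start were searched on both strands for letters of 3 motifs, among 1996 such windows of protein-coding genes on chromosome 2. GTTAAT, a half-site of the liver and kidney factor HNF1, was in 6.5% of all windows, CAAAGT, a half-site of HNF4, in 12.3%, and the TATA box TATAAA in 12.4%. No motif contains another. The windows of BHMT2, DMGDH and BBOX1 held none of the 3, and that of BHMT held a TATA box that begins 29 bases before the start. These 30 bases are shown, with the motif in capitals, because it is the one match among the 4 windows.
BHMT, chr2:87911052-87911081, plus strand: gagagctgcaggTATAAAgagctccgctgc
A match describes letters only, and no match says only that these letters are not in this window.

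Other genes of the same metabolism mostly showed small differences. Of 64 genes listed for choline and betaine supply, methionine, folate and carnitine, 9 lie on chromosome 2 and all 9 were tested. Among them 1, SLC25A45, was called lower, 2 had an adjusted p-value below 0.05 with lower levels, against 4.42% (73) of all genes tested, and 0 rose (0 at an unadjusted p-value below 0.05 by edgeR, and 0 by DESeq2). The log2 fold change was below 0 in 8 of the 9, where 47.0% of all tested genes were below 0, and its median was -0.41 beside 0.02 over all genes. In 5 of the 9, TPM was lower in PA without overlap, where 16.6% of all genes tested were. The other 54 listed genes found in the tables lie off chromosome 2, 47 of them at 0 in all embryos and none above 7 counts, so they are not described.

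Both genes past the adjusted p-value threshold belong to the list of carnitine uptake and use, whose 4 tested genes had a median log2 fold change of -0.73. SLC25A45, a mitochondrial carrier, had 34, 19 and 24 counts in CN1 to CN3 and 5, 8 and 6 in PA1 to PA3, without overlap. It fell by 2.02 on the log2 scale (SE 0.39, adjusted p = 0.0216 from edgeR), and at these low counts the call was lost without CN3, PA1 or PA3 (adjusted p from 0.0524 to 0.0816). CPT1A, which couples long-chain fatty acids to carnitine, had 151.8, 213.6 and 161.6 TPM in CN and 92.9, 98.1 and 138.4 in PA. All PA embryos lay below all CN embryos, and CPT1A fell by 0.61 on the log2 scale (SE 0.13, adjusted p = 0.0319), less than the fold threshold. Leaving out CN1, CN2, CN3, PA1 or PA2 gave adjusted p-values from 0.0508 to 0.116 by edgeR, and leaving out PA3 gave 0.0193. The adjusted p-value was 0.00104 by DESeq2 and 1.05e-05 by edgeR without the expression filter. The carnitine transporter SLC22A5 had a log2 fold change of -0.41 ± 0.12 (SE, adjusted p = 0.0867) and the related SLC22A4 of -0.85 ± 0.38 (adjusted p = 0.246). Neither passed by edgeR, while SLC22A5 had an adjusted p-value of 0.0398 by DESeq2, at -0.42.

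Of the 5 genes around betaine and methionine, 0 passed the test, with 0 at an unadjusted p-value below 0.05 by edgeR and 0 called by DESeq2. ALDH7A1, which can oxidize betaine aldehyde to betaine, had 693.9 ± 57.3 TPM in CN and 602.3 ± 96.2 in PA (SD, n = 3), a log2 fold change of -0.14 (SE 0.13, adjusted p = 0.608 from edgeR). The choline transporter SLC44A2 had -0.06 (adjusted p = 0.712), the choline kinase CHKA -0.20 (adjusted p = 0.277) and the mitochondrial carrier SLC25A48 -0.59 (adjusted p = 0.532). SLC25A48 was lower in PA2 and PA3, at 13.5 and 15.2 TPM, than in PA1, at 40.8, and without PA1 it had -1.38 (adjusted p = 0.0490) and was called. GAMT, which uses methyl groups to make creatine, was the only one of the 9 above 0, at 0.21 (adjusted p = 0.701), and it was -0.21 without PA1, the embryo with 1423 TPM against 764.6 and 820.2 in the other PA embryos.

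**Figure D3:**
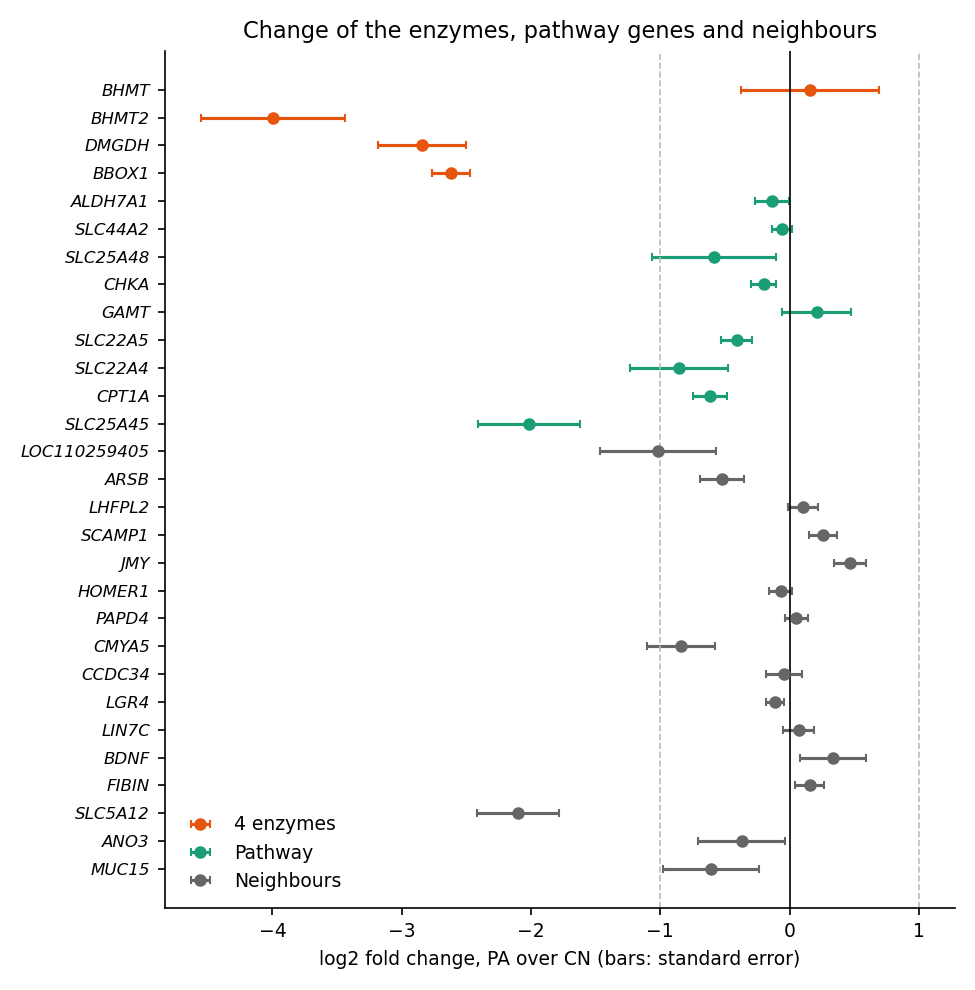
Log2 fold change, PA over CN, of the 4 enzymes (orange), 9 other pathway genes (green) and 16 neighbouring genes (grey), with bars for the standard error and dashed lines at the fold threshold of 1 either way. BHMT2, DMGDH and BBOX1 lie at -4.00, -2.84 and -2.62, and the neighbours other than SLC5A12 lie between -1.02 and 0.47.

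The genes that lie nearest to the enzymes were compared in the same fit. Among the 4 nearest tested genes on each side of either locus, 16 in all, 1 was called (lower in PA, as were 2.78% of all genes tested) and 15 were not, with log2 fold changes from -1.02 to 0.47 among the 15 and a median of -0.06 over the 16. SLC5A12, a monocarboxylate transporter 265.0 kb from BBOX1, was the one called, and it is also on the proximal tubule list. It had 83.0, 126.9 and 114.6 TPM in CN and 22.4, 12.1 and 37.8 in PA, and fell by 2.10 on the log2 scale (SE 0.32, adjusted p = 0.00665 from edgeR). FIBIN, 32.2 kb from BBOX1 and nearer to it, had 0.16 (adjusted p = 0.478). CCDC34, on the other side at 206.7 kb, had -0.04 (adjusted p = 0.879).

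Beside DMGDH, the lysosomal sulfatase gene ARSB at 12.3 kb had less TPM in every PA embryo, at 98.4 to 134.8, than in any CN embryo, at 155.1 to 223.7, but its log2 fold change of -0.52 ± 0.17 (SE) did not pass (adjusted p = 0.119 from edgeR). LOC110259405, at 11.5 kb, was at -1.02 ± 0.45 (adjusted p = 0.244) with overlapping groups, and ARSB and LOC110259405 overlap each other on opposite strands. Beyond BHMT, JMY at 86.3 kb had 0.47 ± 0.12 (adjusted p = 0.0622) and CMYA5 at 455.9 kb -0.84 ± 0.26 (adjusted p = 0.106). LHFPL2, SCAMP1, HOMER1, PAPD4, LGR4, LIN7C, BDNF, ANO3 and MUC15 were not called either.

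Markers of kidney tubule moved with the 3 enzymes. Of 24 proximal tubule markers, 8 lie on chromosome 2, SLC22A11 was too low to be tested, with 0, 3 and 2 counts in CN1 to CN3 and 0 in PA, and of the 7 tested 6 were called lower (edgeR, Benjamini-Hochberg), where 2.78% of all genes tested were. Examples were SLC22A12, the urate transporter, at -4.32 (adjusted p = 0.000473), SLC22A8 at -2.82 (adjusted p = 0.00348), SLC34A1, a phosphate cotransporter, at -2.51 (adjusted p = 0.00324) and CDHR5 at -1.98 (adjusted p = 0.000107). SLC22A6 had 0.13 (adjusted p = 0.839). This list was written with earlier results of these embryos known, so its count is not independent evidence. The median log2 fold change of the 7 was -2.10, beside 0.02 over all genes.

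The summed TPM of the tubule list ranged from 689 to 1044 in CN and was 168.1, 102.0 and 243.5 in PA1 to PA3, or 19.0%, 11.5% and 27.5% of the CN mean. BBOX1 stood at 15.8%, 13.5% and 17.4% of its CN mean in the same embryos, DMGDH at 19.0%, 12.5% and 7.03%, and BHMT2 at 11.3%, 4.51% and 1.40%. PA3 thus had the highest tubule sum and the highest BBOX1 among PA embryos, but the lowest DMGDH and BHMT2. Of 18 hepatocyte markers, 5 were tested (F2, F12, C3, LECT2 and SERPING1) and 0 were called (2.78% of all genes tested were called lower), with 0 at an unadjusted p-value below 0.05 by edgeR and 0 called by DESeq2. Their median log2 fold change was -0.08. Their summed TPM was 7378 to 8381 in CN and 8702, 6082 and 5858 in PA1 to PA3, or 110%, 77.1% and 74.2% of the CN mean. The other hepatocyte and most other tubule markers lie off chromosome 2, where these tables hold almost no counts (35 of 38 listed marker genes at 0 in all embryos), so they cannot be read here. Among early kidney markers WT1 had -0.47 ± 0.09 (SE, adjusted p = 0.0217), below the fold threshold, and the erythroid markers KLF1 and EPOR had -0.74 (adjusted p = 0.127) and -0.06 (adjusted p = 0.840). The part of tissue makeup in the levels of the enzymes was not tested.

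**Figure D4:**
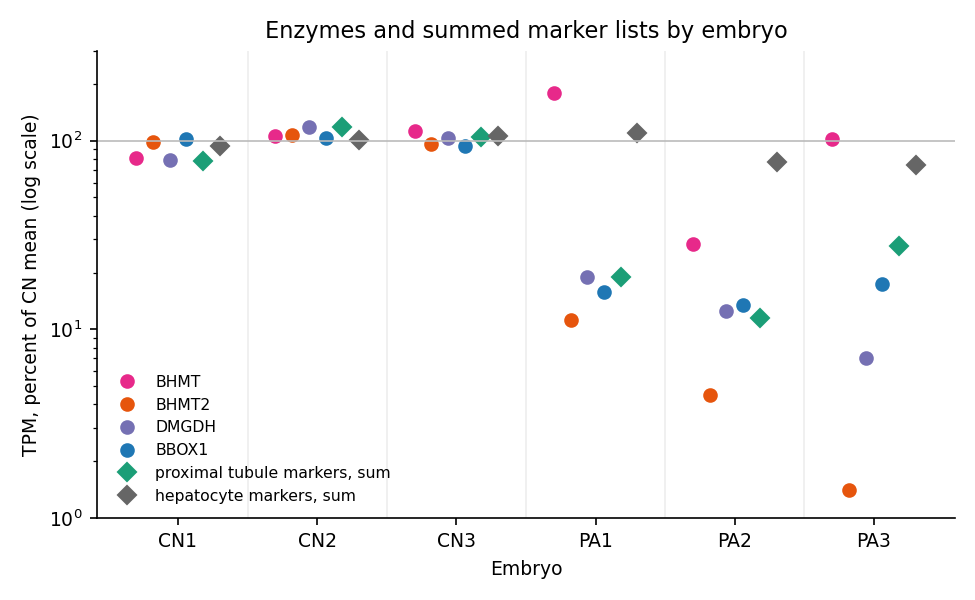
TPM of each enzyme (circles) and summed TPM of the proximal tubule and hepatocyte marker lists (diamonds) in each embryo, as a percent of the CN mean on a log scale, with the line at 100%. In PA embryos the tubule sum lies at 11.5% to 27.5% and the hepatocyte sum at 74.2% to 110%, while BHMT2 reaches 1.40% in PA3.

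The enzymes' mean profile was compared with that of each of 1648 other tested genes, as Pearson's r of log2 CPM over the 6 embryos. The 4 do not all share one profile. BHMT2, DMGDH and BBOX1 had r of 0.93 to 0.99 with each other and BHMT 0.21 to 0.25 with them. As BHMT2, DMGDH and BBOX1 are all lower in PA, their r over the embryos mostly reflects that group difference. It is no separate evidence of a shared profile. After the group means were removed, r was 0.97 for BHMT2 and DMGDH, 0.68 for BHMT and BBOX1, 0.31 and 0.32 for BHMT with BHMT2 and DMGDH, and 0.24 and 0.08 for BBOX1 with BHMT2 and DMGDH. The closest were NDUFV1 (r = 0.984), ESRRA (0.983), NADSYN1 (0.982), SIGIRR (0.982) and ARID3A (0.982), each lower in every PA embryo than in any CN embryo. Their log2 fold changes, between -0.35 and -0.69, were smaller than those of the 3 enzymes. After the group means were removed the closest were CTXN1 (r = 0.991), LOC100521256 (0.991), CHID1 (0.991), ESRRA (0.989) and SAC3D1 (0.982). Either list holds the highest of 1648 values over only 6 embryos, so a high r alone says little. All these genes share the embryos, the libraries and their depth with the enzymes, and with 2 groups of 3 embryos the first measure mostly ranks genes by how cleanly they part the groups.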

How the data were processed

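RNA-seq of 6 whole embryos was analysed. According to the methods and processing notes, Salmon 1.3.0 quantified the raw reads against pig transcripts (Sscrofa11.1 is the stated build). The authors deposited, per embryo and transcript, estimated counts, which are not whole numbers and not normalized, TPM values and effective lengths. Transcripts were joined to genes by the RefSeq annotation of Sscrofa11.1, which also gave all sequences, and values were summed per gene.

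Gene counts were rounded and tested in R 4.3.3 with edgeR 4.0.16 (two-sided quasi-likelihood test, robust, TMM factors, transcript length offset as tximport computes it, filterByExpr with a minimum count of 10 and total of 15, Benjamini-Hochberg adjustment). The standard error is the log2 fold change over the square root of F. Tables were made in Python 3.11.15 with pandas 2.3.3, and sequences were aligned with Biopython 1.88. Scripts were tested on simulated data. Alternatives were DESeq2 1.42.0, library totals, no length offset, no filter, at least 10 counts in every embryo, chromosome 2 genes alone, the replicate block, TPM pseudocounts of 0.1 and 1, counts for TPM in transcript shares, and each embryo left out.

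The 4 enzymes and the lists of pathway and marker genes were chosen with earlier results of these data known. From the pathway lists 1 gene was taken out and is not reported here, and list genes that were not tested are given as counts. Genes named are the 4 enzymes, all tested pathway genes, the 4 nearest tested neighbours on each side of each locus, the 5 genes most alike by each measure of likeness, and examples from marker lists. At 3100284 to 3573406 counts per embryo, 3 counts are taken as the smallest detectable amount. Such floors cover counting error only, since the libraries carry no molecular identifiers.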

Additional observations from a re-analysis of the deposited data

How the results depend on the processing

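Across 26 results and 299 alternative values, 269 stayed on their side of the test or close to the main value. Values whose test is not read, such as those of the enzymes, were close if they moved by less than the spread between embryos. Counts were close if they stayed near the main count. Of the rest, 17 moved, 10 were weaker, 2 stronger and 1 reversed. BHMT, not called in any, changed sign within that spread, at -0.62 without PA1 and -0.17 with the block. With DESeq2, 173 genes had an adjusted p-value below 0.05 where edgeR gave 108, and 4 were called higher in PA. Without the expression filter these were 196 and 7, and 77 genes were called in place of 48. The number of pathway genes called was 0 with at least 10 counts in every embryo, a filter that leaves out SLC25A45. Leaving out embryos one at a time, between 34 and 52 genes were called, 1 to 6 called higher, 48 to 128 had an adjusted p-value below 0.05, and 0 to 1 pathway genes and 3 of the 4 enzymes were called. The log2 fold change ranged from -5.05 to -3.49 for BHMT2, from -3.32 to -2.50 for DMGDH, from -2.69 to -2.52 for BBOX1 and from -0.62 to 0.61 for BHMT. GAMT ranged from -0.21 to 0.43, reversed without PA1. The cause was not tested.

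Same-numbered PA and CN embryos are different embryos and the sources state no pairing. Their deviations from the group means were correlated at 0.25, 0.12 and 0.04, and those of differently numbered embryos at -0.24 to 0.17. With so few embryos these values cannot show whether the numbers pair them. With the replicate number as a block 43 genes were called, 3 of the 4 enzymes among them, and 0 pathway genes, since SLC25A45 (-1.98, adjusted p = 0.0537) no longer passed, and CPT1A had -0.62 (adjusted p = 0.0659, edgeR). BHMT2 then had -4.26. With 5 to 8 counts of SLC25A45 in PA embryos, depth limits the precision of its change.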

Other observations

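PA1, the embryo with the highest BHMT of the 6, also had the highest C3 and GAMT, a set chosen after its values were seen. C3, a complement component made by liver, had 333.7, 290.5 and 327.4 TPM in CN1 to CN3 and 714.1, 195.3 and 102.5 in PA1 to PA3. GAMT had 820.9, 909.7 and 1059 TPM in CN and 1423, 820.2 and 764.6 in PA. PA2, the embryo with the lowest BHMT, was not the lowest for either gene. Neither C3 (log2 fold change 0.22, SE 0.67, adjusted p = 0.875) nor GAMT (0.21, SE 0.27, adjusted p = 0.701) passed edgeR's test.

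The 2 transcripts of the long first exon of BBOX1 divided their counts unevenly between embryos. XM_021083234.1 had 0, 0 and 81.0 estimated counts in CN1 to CN3 and 50.7, 72.9 and 95.0 in PA1 to PA3, and XM_021083236.1 had 143.2, 136.7 and 147.0 in CN and 49.3, 7.1 and 5.0 in PA. Of their words of 31 bases, 28 occur in XM_021083234.1 alone and 34 in XM_021083236.1 alone, so few bases tell them apart.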
